A study of Mus musculus with 6 samples.

Results

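Histone genes were followed in the mRNA libraries of C2C12 cells, a mouse line of myoblasts, which are the precursors of skeletal muscle fibres. The genes were chosen by symbol, taking every clustered gene (*Hist1h*, *Hist2h*, *Hist3h* and *Hist4h*) and every separate variant gene (*H2af*, *H3f3*, *H1f0* and *H1fx*) of the GENCODE M21 annotation. Of 89 annotated genes with such symbols, 68 had values among the 14548 genes of the files, and the other 21 were not analysed here. The 68 genes comprised 58 clustered and 10 variant genes. There were 3 WT libraries and 3 MSTN-KO libraries, the latter from cells in which CRISPR/Cas9 had been directed at exon 3 of *Mstn*, the gene of myostatin, a secreted inhibitor of muscle growth. All MSTN-KO libraries came from 1 line, C11, so an effect of the knockout and a property of that line cannot be told apart. The strain field of the WT labels also reads C11, and the genotype in the labels was used for the grouping. The labels do not say whether replicates were separate cultures, so the p-values measure only the spread between these libraries, which may be technical.

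Histones are the proteins around which DNA is wound. H2A, H2B, H3 and H4 form the core of the nucleosome, and the linker histone H1 binds where DNA enters and leaves it. Clustered genes supply most histone protein while DNA is copied, and their mRNAs end in a short hairpin, bound by the protein SLBP, in place of a poly(A) tail. Variant genes are read in and out of S phase, their mRNAs carry poly(A) tails, and their products replace the clustered histones at particular sites or in cells that have stopped dividing.

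The hairpin is shown here for the genes on which the results turn, because the clustered genes are grouped further on by what the annotation places after it. The hairpin was searched as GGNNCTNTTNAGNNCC in the sense strand of the GENCODE M21 transcripts and was found in 193 of 55450 genes (0.348%). It was present in 39 of the 68 histone genes analysed, 38 of them clustered and the other one *H2afx*. In each sequence the hairpin is in capitals, with 5 flanking bases on either side.
Hist1h2bj: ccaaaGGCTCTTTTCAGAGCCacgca
Hist1h4b: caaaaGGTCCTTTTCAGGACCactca
Hist1h3a: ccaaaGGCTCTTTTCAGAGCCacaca
Hist2h2ac: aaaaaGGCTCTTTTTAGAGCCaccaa
Hist3h2ba: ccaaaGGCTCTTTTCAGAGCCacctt
Hist1h1c: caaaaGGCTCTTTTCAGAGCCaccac
Hist1h4i: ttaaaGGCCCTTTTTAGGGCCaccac
H2afx: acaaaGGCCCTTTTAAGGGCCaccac
In *Hist1h2bj*, *Hist1h4b*, *Hist1h3a* and *Hist2h2ac*, the annotated transcript ended 23, 28, 37 and 57 bases after the hairpin. It ran on for 169 bases in *Hist3h2ba*, 330 bases in *Hist1h4i*, 822 bases in *H2afx* and 840 bases in *Hist1h1c*, and each of these longer ends had an AATAAA or ATTAAA, the letters of a poly(A) signal, in its last 60 bases.

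Expression was measured as FPKM, the fragments on a gene per kilobase of exon, scaled to the fragments of the library. The 14548 values summed to between 723705 and 764524 FPKM in the WT libraries and to between 856314 and 999579 FPKM in the MSTN-KO libraries. Expression of *Mstn* lay between 0 and 0.0586 FPKM in all 6 libraries, which gave no check of the labels. In the gene counts that follow, rose and fell mean an adjusted p under 0.05 in limma, as for 8.78% and 8.96% of all genes tested. Of 5 myoblast markers with values, *Myod1*, *Des* and *Itga7* fell and *Pax7* rose in the MSTN-KO libraries, with summed levels of 950 to 1356 FPKM in WT and 596 to 737 FPKM in MSTN-KO. Of 19 markers of muscle differentiation with values, all 19 had a negative fold change and 18 fell. Their sum was 1718, 1781 and 742 FPKM in WT replicates 1, 2 and 3, so that WT replicate 3 stood apart, and 207 to 295 FPKM in the MSTN-KO libraries. Of 5 leukocyte markers only *Cd68* had values, at 0.702 to 2.39 FPKM. The 3 endothelial, 2 epithelial and 1 adipocyte markers with values each summed by list to at most 0.421 FPKM in any library. These libraries are bulk samples, in which fewer cells of a type and less RNA per cell cannot be told apart. The part of the differentiation markers in the histone results was not tested.

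More histone genes rose than fell in the MSTN-KO libraries. Of the 61 histone genes that reached 1 FPKM in at least 1 library, 17 rose and 4 fell at a Benjamini-Hochberg adjusted p under 0.05 in limma, and 40 did not pass. The shares were 27.9% and 6.56%, beside 8.78% and 8.96% of all 10837 genes tested. At the cutoff for differentially expressed genes (DEGs), an unadjusted p under 0.05 with a log2 fold change above 1 or below -1, 13 histone genes were upregulated and 2 downregulated, beside 1.21% and 2.3% of all genes. The MSTN-KO values lay wholly above the WT values in 21 genes and wholly below in 4, beside 19.3% and 18.1% of all genes. The median log2 fold change was 0.45 for the 51 clustered genes tested, 0.19 for the 10 variant genes and -0.00 for all genes. Among the clustered genes, *Hist2h2ac* and *Hist1h3b* passed the filter only through MSTN-KO libraries and *Hist1h2ac* and *Hist1h4a* only through WT libraries, and another 7 did not reach 1 FPKM anywhere, so these shares and medians are a description. With each library scaled to the same sum, 11 histone genes rose and 6 fell, and the median of all genes moved to -0.26. Without WT replicate 3, 13 rose and 3 fell. These are counts of genes and not totals of histone RNA. The summed FPKM of the clustered genes overlapped between the groups, at 227 to 277 in WT and 260 to 358 in MSTN-KO. All histone genes together made up 0.313% to 0.357% of the summed FPKM in WT and 0.308% to 0.345% in MSTN-KO.

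**Figure D1:**
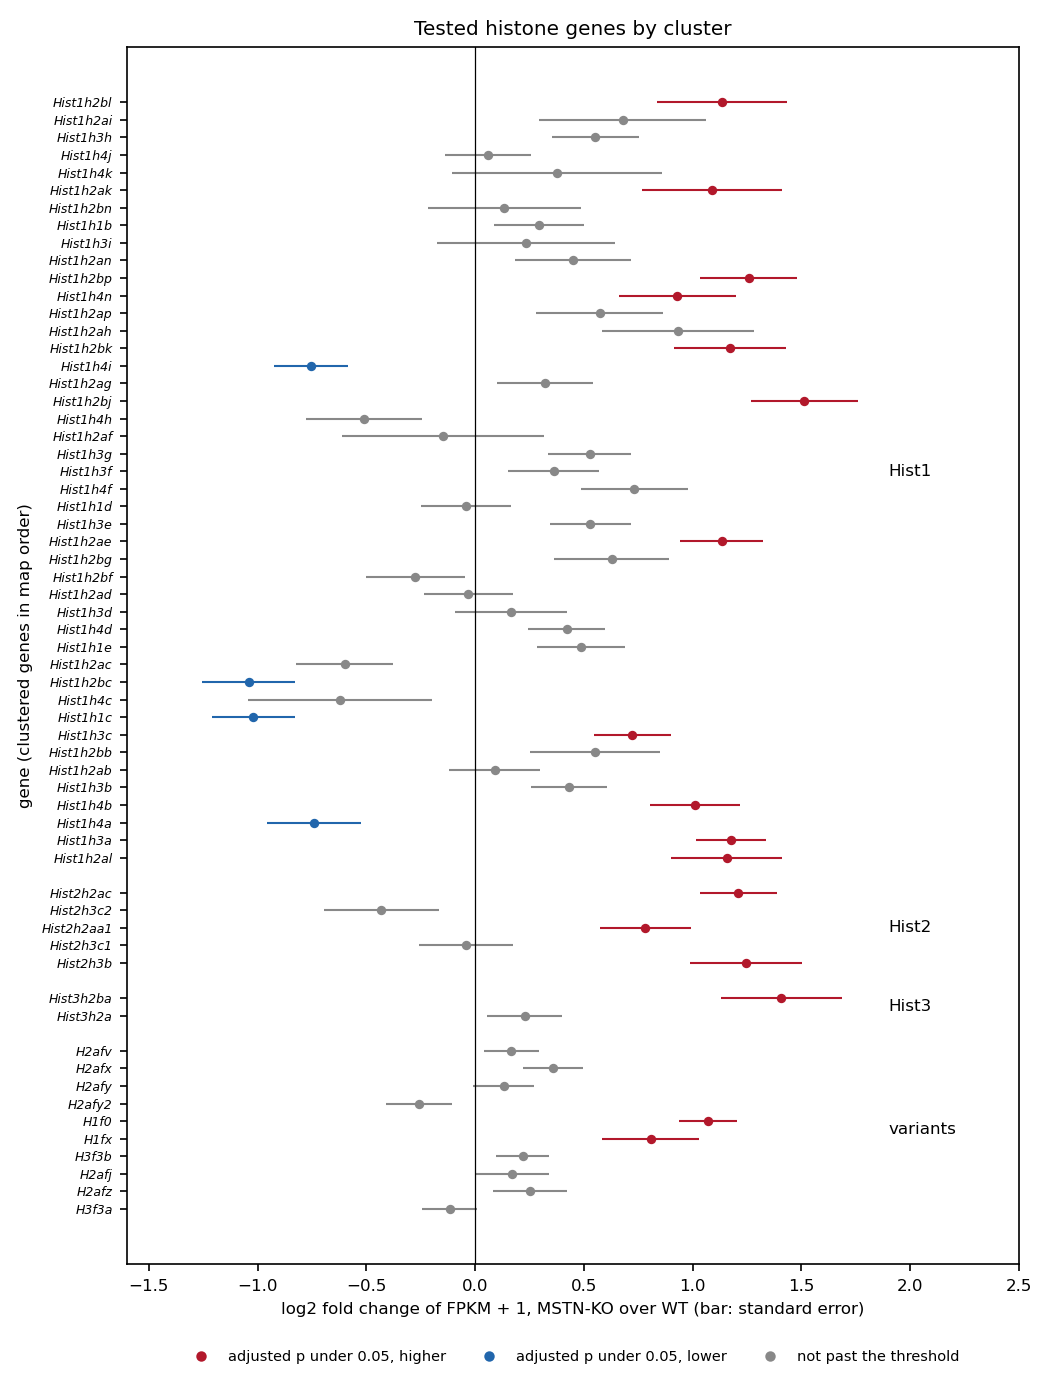
Log2 fold change of FPKM + 1 (MSTN-KO over WT, horizontal axis) of the 61 histone genes tested, with standard errors as bars. Clustered genes are in map order within Hist1, Hist2 and Hist3, with the pseudogene *Hist1h2al* last in Hist1. The 17 red points are genes that rose and the 4 blue points genes that fell, all 4 of them in Hist1.

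Of the 7 linker histone genes, 6 were tested, and *H1f0* and *H1fx* rose, *Hist1h1c* fell and 3 did not pass. *H1f0* (chromosome 15, 79028450 to 79030504 of GRCm38) encodes H1.0, a replacement linker histone known to build up in cells that stop dividing and differentiate. WT replicates 1, 2 and 3 held 144, 152 and 145 FPKM of it, and the MSTN-KO replicates 268, 306 and 364 FPKM. All MSTN-KO libraries were above all WT libraries, and the 2.12-fold difference in means was a log2 fold change of 1.07 ± 0.13 (SE) with an adjusted p of 0.000143 in limma. *H1fx*, another single gene of the linker family (chromosome 6), was at 47.3, 34.1 and 30.0 FPKM in WT and at 67.0, 44.7 and 89.6 FPKM in MSTN-KO. The groups overlapped through WT replicate 1 and MSTN-KO replicate 2. For *H1fx* the log2 fold change was 0.81 ± 0.22 (limma adjusted p = 0.0243), and the call was lost without WT replicate 2, WT replicate 3 or MSTN-KO replicate 3 (adjusted p = 0.0651, 0.0782 and 0.124), without a filter on low values (0.0967) and with each library scaled to the same sum (0.0925).

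*Hist1h1c*, which encodes H1.2, was the clustered linker gene with the highest level and was the one that fell. It was at 69.5, 74.1 and 46.3 FPKM in WT and at 28.2, 25.0 and 38.5 FPKM in MSTN-KO. The lowest WT value, in replicate 3, was still above the highest MSTN-KO value. The log2 fold change was -1.02 ± 0.19 (limma adjusted p = 0.00314). The other clustered linker genes were far lower. *Hist1h1b* (H1.5) had a mean of 1.65 FPKM ± 0.182 (SD, n = 3) in WT and 2.35 FPKM ± 1.05 in MSTN-KO, and *Hist1h1e* (H1.4) 1.16 FPKM ± 0.359 and 2.06 FPKM ± 0.668. Neither passed (limma adjusted p = 0.342 and 0.116), although *Hist1h1e* passed without MSTN-KO replicate 1 (adjusted p = 0.0458). *Hist1h1d* lay between 0.360 and 1.06 FPKM, and *Hist1h1a* did not reach the filter.

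The level of *H1f0* relative to *Hist1h1c* was 2.07, 2.06 and 3.14 in the WT libraries and 9.50, 12.2 and 9.46 in the MSTN-KO libraries, with no overlap. Ratios within a library were chosen with the values known and are given without a test. *H1f0* made up 54.4% to 64.1% of the summed H1 FPKM in WT and 72.9% to 80.2% in MSTN-KO. Whether the libraries were selected for poly(A) tails is not given in the sources used here, so these shares describe the libraries alone.

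**Figure D2:**
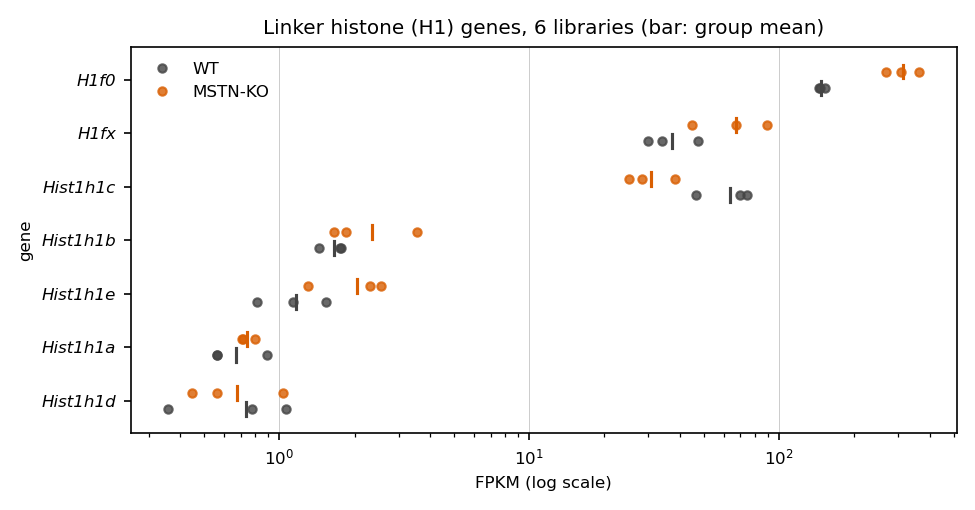
FPKM on a log axis of the 7 linker histone genes in each library, with WT in grey, MSTN-KO in orange and the arithmetic group mean as a short bar. *H1f0* lies between 144 and 152 FPKM in WT and between 268 and 364 FPKM in MSTN-KO, while *Hist1h1c* falls from a mean of 63.3 to 30.6 FPKM.

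Clustered H2A and H2B genes, whose products pair as dimers on the outside of the nucleosome core, held 10 of the 15 clustered genes that rose. Of 15 H2A genes tested, 5 rose and 10 did not pass, with a median log2 fold change of 0.57, which was 0.14 without MSTN-KO replicate 3 and 0.25 with the length and GC correction. Of 10 H2B genes tested, 5 rose, 1 fell and 4 did not pass, with a median of 0.88, which was 1.503 with a pseudocount of 0.1, 0.55 without a filter on low values and 0.56 with that correction. *Hist1h2bj* had the highest fold change of the 61 genes on the log2(FPKM + 1) scale, though its 3.15-fold ratio of means was below those of *Hist2h2ac*, *Hist1h2bp* and *Hist3h2ba* (4.32, 4.21 and 4.07). It was at 4.81, 2.72 and 6.90 FPKM in WT and at 11.6, 14.5 and 19.3 FPKM in MSTN-KO (log2 fold change 1.51 ± 0.25, limma adjusted p = 0.0012). The groups were well apart in this gene. *Hist3h2ba* of the small Hist3 cluster was at 1.99, 1.06 and 1.20 FPKM in WT and at 2.68, 6.85 and 7.77 FPKM in MSTN-KO (log2 fold change 1.41 ± 0.28, limma adjusted p = 0.00431). *Hist1h2bp* was at 0.717, 0.470 and 1.19 FPKM in WT and at 2.06, 3.78 and 4.20 FPKM in MSTN-KO (1.26 ± 0.22, adjusted p = 0.00219). In both genes every MSTN-KO value was above every WT value.

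*Hist1h2ae* was the clustered H2A gene with the highest mean level. Its values were 7.79, 9.26 and 5.79 FPKM in WT and 16.3, 14.5 and 23.1 FPKM in MSTN-KO, again without overlap (log2 fold change 1.13 ± 0.19, limma adjusted p = 0.00161). *Hist2h2ac*, from the Hist2 cluster on chromosome 3, was at 0.331, 0.889 and 0.689 FPKM in WT and at 2.61, 2.72 and 2.92 FPKM in MSTN-KO (1.21 ± 0.18, adjusted p = 0.00054). At levels this low, log2(FPKM + 1) understates the 4.32-fold difference in means. *Hist2h2ac* passed the filter only through the MSTN-KO libraries, so its p-value is a description, although the call was kept without a filter on low values. *Hist3h2a* was above *Hist1h2ae* in every WT library, at 9.11 to 13.03 FPKM, and lay between 11.5 and 16.4 FPKM in MSTN-KO. Its groups overlapped, and so did those of *Hist1h2ag* at 5.65 to 7.92 FPKM in WT and 6.04 to 13.2 FPKM in MSTN-KO (limma adjusted p = 0.378 and 0.335).

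Another 5 H2A and H2B genes rose by 0.78 to 1.17 on the log2 scale, namely *Hist1h2bk*, *Hist1h2bl*, *Hist1h2ak*, *Hist2h2aa1* and the processed pseudogene *Hist1h2al*. Each of these calls was lost under some alternatives. *Hist1h2bk* lost the call without MSTN-KO replicate 3 (adjusted p = 0.0512). *Hist1h2bl* lost it without WT replicate 1 or 3 or MSTN-KO replicate 1 or 3 (adjusted p = 0.0533, 0.0644, 0.0534 and 0.106). *Hist1h2ak* lost it without WT replicate 1 or 3 or MSTN-KO replicate 2 (0.142, 0.089 and 0.0686), and *Hist2h2aa1* without WT replicate 2 or 3 or MSTN-KO replicate 1 (0.103, 0.0558 and 0.0592). All 5, *Hist1h2al* included, lost it once gene length and GC content were corrected for and without a filter on low values (adjusted p from 0.0513 to 0.187). With each library scaled to the same sum, *Hist1h2ak*, *Hist1h2bl* and *Hist2h2aa1* lost it (0.115, 0.0728 and 0.0707), and *Hist1h2ak* also with scaling by the percentile 75 (0.0765).

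*Hist1h2bc* fell and was the H2B gene with the highest level. It was at 33.9, 52.9 and 30.9 FPKM in WT and at 21.8, 13.2 and 20.3 FPKM in MSTN-KO, without overlap (log2 fold change -1.04 ± 0.21, limma adjusted p = 0.00496). The annotated transcript searched for *Hist1h2bc* held no hairpin. The ratio of *Hist1h2bj* to *Hist1h2bc* was between 0.0514 and 0.223 in WT and between 0.533 and 1.10 in MSTN-KO. The summed H2B FPKM was 49.7 to 69.5 in WT and 56.4 to 75.3 in MSTN-KO and overlapped, whereas the summed clustered H2A FPKM was 52.8 to 58.0 in WT and 78.9 to 120.0 in MSTN-KO and did not.

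Of 12 clustered H3 genes tested, 3 rose and 9 did not pass, with a median log2 fold change of 0.48, which was 0.22 with the length and GC correction and 0.30 with each library scaled to the same sum. *Hist1h3a*, a canonical H3 gene at the end of the Hist1 cluster, was at 2.02, 2.97 and 2.27 FPKM in WT and at 6.53, 6.09 and 7.47 FPKM in MSTN-KO. This was the rise with the lowest adjusted p of the clustered genes (log2 fold change 1.18 ± 0.16, limma adjusted p = 0.000335). *Hist2h3b* rose by 1.24 ± 0.26 (adjusted p = 0.00536), and *Hist1h3c* by 0.72 ± 0.18 (adjusted p = 0.0145). The call of *Hist1h3c* was lost without WT replicate 1 or MSTN-KO replicate 3 (adjusted p = 0.058 and 0.0608), without a filter on low values (0.0558), with scaling to the same sum (0.0835) and with the length and GC correction (0.0603). *Hist1h3g* and *Hist1h3h*, among the 3 clustered H3 genes with the highest levels, had fold changes of 0.53 ± 0.19 and 0.55 ± 0.20 and did not pass (limma adjusted p = 0.0735 and 0.0726). *Hist1h3g* passed without WT replicate 1 or MSTN-KO replicate 2 (adjusted p = 0.0353 and 0.0479) and with the replicate number as a block (0.0444), and *Hist1h3h* passed without MSTN-KO replicate 1 (0.0295).

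The H4 genes, which all encode the same core histone, split. Of 10 tested, 2 rose, 2 fell and 6 did not pass, with a median log2 fold change of 0.22. *Hist1h4b* was at 8.61, 10.3 and 4.96 FPKM in WT and at 15.1, 15.6 and 18.9 FPKM in MSTN-KO (1.01 ± 0.21, limma adjusted p = 0.00513). *Hist1h4i* was at 18.0, 15.9 and 12.9 FPKM in WT and at 7.97, 7.61 and 11.1 FPKM in MSTN-KO (-0.75 ± 0.17, adjusted p = 0.00905). The groups did not overlap in either gene, and their order changed. The ratio of *Hist1h4b* to *Hist1h4i* was 0.478, 0.648 and 0.385 in WT and 1.89, 2.05 and 1.71 in MSTN-KO. The summed H4 FPKM overlapped between the groups, at 38.9 to 52.7 in WT and 46.5 to 60.3 in MSTN-KO. *Hist1h4n* rose by 0.93 ± 0.27 and *Hist1h4a* fell by 0.74 on the log2 scale with an SE of 0.22 (limma adjusted p = 0.03 and 0.0315), and each lost its call without WT replicate 2, WT replicate 3 or MSTN-KO replicate 3 (adjusted p up to 0.142 and 0.121) and without a filter on low values (0.117 and 0.0668). The call of *Hist1h4n* was also lost with scaling by the percentile 75 (adjusted p = 0.0555), scaling to the same sum (0.106) and the length and GC correction (0.143, or 0.134 with the block), and that of *Hist1h4a* with quantile normalization (0.0929). *Hist1h4a* passed the filter only through the WT libraries, so its p-value is a description.

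Variant genes carried most histone FPKM, 88.9% to 91.7% of the sum over the histone genes in every library. This is a share of the FPKM in libraries whose selection for poly(A) tails is unknown, and may not be the share in the cells. In the WT libraries the order of the variant genes from high to low was *H2afz*, *H3f3b*, *H3f3a*, *H2afx*, *H1f0*, *H2afv*, *H2afy*, *H1fx*, *H2afy2* and *H2afj*. Only *H2afz* and *H3f3b* overlapped among neighbours in this order. In the MSTN-KO libraries *H1f0* was above *H2afx*. Apart from the linker genes *H1f0* and *H1fx*, none of the 8 variant genes passed.

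*H2afz* encodes H2A.Z, a variant found at promoters. It was at 600.3, 635 and 865 FPKM in WT and at 705, 790.5 and 1000.1 FPKM in MSTN-KO. Its groups overlapped (log2 fold change 0.25 ± 0.17, limma adjusted p = 0.326), as did those of the related *H2afv* at 106 to 124 FPKM in WT and 124 to 146 FPKM in MSTN-KO (0.17 ± 0.13, adjusted p = 0.38). *H2afx* encodes H2A.X, which is phosphorylated beside DNA breaks. It was at 155, 155 and 158 FPKM in WT and at 194, 171 and 242 FPKM in MSTN-KO, so that all MSTN-KO values were higher, but it did not pass (0.36 ± 0.14, adjusted p = 0.089). It passed without MSTN-KO replicate 2 (limma adjusted p = 0.0255). *H2afy* and *H2afy2* encode the macroH2A histones, large variants found on silent chromatin. Their fold changes were 0.13 ± 0.14 and -0.26 ± 0.15, and that of *H2afj* was 0.17 ± 0.17 (limma adjusted p = 0.549, 0.259 and 0.506).

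*H3f3a* and *H3f3b* both encode H3.3, which is placed on chromatin outside DNA replication. *H3f3a* was at 427, 483 and 508 FPKM in WT and at 405, 438 and 462 FPKM in MSTN-KO. *H3f3b* was at 542, 558 and 609.9 FPKM in WT and at 636, 654 and 698 FPKM in MSTN-KO. Only the second was without overlap, and neither passed (log2 fold changes -0.12 ± 0.13 and 0.22 ± 0.12, limma adjusted p = 0.552 and 0.236). Within each library, the ratio of *H3f3b* to *H3f3a* did not overlap between the groups. It was 1.27, 1.15 and 1.20 in WT and 1.57, 1.49 and 1.51 in MSTN-KO. With each library scaled to the same sum, *H2afz*, *H2afv*, *H2afy*, *H2afj* and *H3f3b* turned to negative fold changes between -0.15 and -0.03, and *H3f3a* passed as lower (-0.40, adjusted p = 0.0159), as did *H2afy2* (-0.53, adjusted p = 0.0327).

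**Figure D3:**
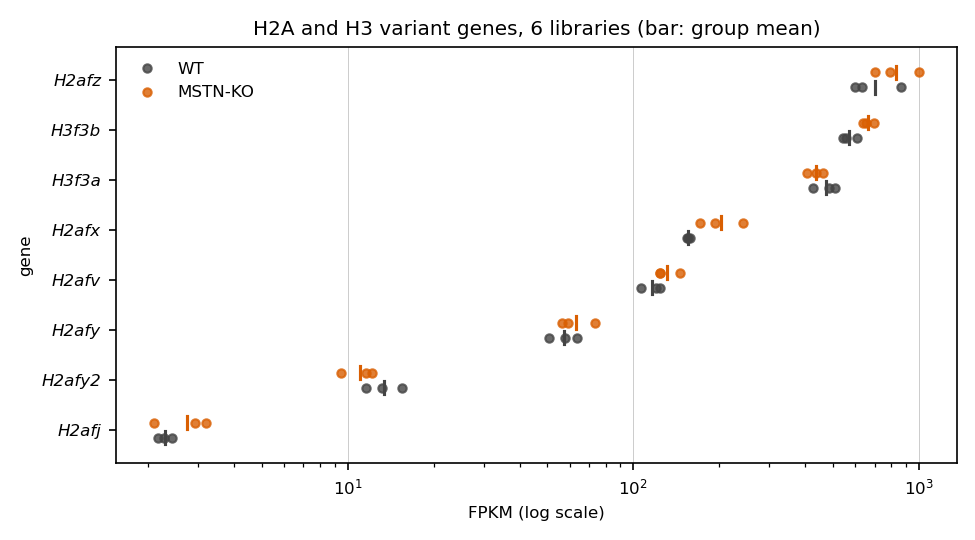
FPKM on a log axis of the 8 H2A and H3 variant genes in each library, with WT in grey, MSTN-KO in orange and the arithmetic group mean as a short bar. Groups are apart in *H2afx* and *H3f3b* and overlap in the other genes, and the levels run from 2.10 FPKM in *H2afj* to 1000.1 FPKM in *H2afz*.

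By position, the Hist1 genes on chromosome 13 lay in 3 blocks, beside the pseudogene *Hist1h2al*, which is more distant. In the first block, from 21715763 to 21837530 of GRCm38, all 13 genes tested had a positive fold change and 4 rose, with a median of 0.55. In the second, from 22035164 to 22043676, 2 rose, 1 fell and 2 did not pass. In the third, from 23531050 to 23764406, 4 rose, 3 fell and 18 did not pass, with a median of 0.36. Thus *Hist1h1c*, *Hist1h2bc* and *Hist1h4a*, which fell, shared a block with *Hist1h3a*, *Hist1h3c*, *Hist1h4b* and *Hist1h2ae*, which rose. In Hist2 on chromosome 3, 3 of 5 genes tested rose, and in Hist3 on chromosome 11, 1 of 2, beside 8.78% of all genes tested. Of the 3 in Hist2, *Hist2h3b* and *Hist2h2aa1* share their sequence with other genes, so their values are uncertain. *Hist2h2ac* passed the filter only through MSTN-KO libraries. The Hist2 median log2 fold change was 0.78, and ranged from 0.029 without a filter on low values to 1.35 with a pseudocount of 0.1. The single gene *Hist4h4* on chromosome 6 did not reach 1 FPKM.

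Of 365 tested genes of chromosome 13 outside the histone genes, 7 rose and 116 fell, with a median log2 fold change of -0.37. The medians of the other genes of chromosomes 3 and 11 were 0.01 and 0.02. Between the histone blocks, *Abt1* was at 25.4, 26.3 and 28.1 FPKM in WT and at 15.5, 13.9 and 19.0 FPKM in MSTN-KO (log2 fold change -0.70 ± 0.14, limma adjusted p = 0.00493). *Zfp322a*, the only other non-histone gene tested there, had a fold change of -0.65 ± 0.22 (adjusted p = 0.0554). The part of this chromosome-wide difference in the Hist1 values was not tested.

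Among the histone genes tested, an H2A and an H2B gene lay head to head in 8 places, 175 to 301 bases apart. The starts faced each other. Pairs with an untested partner, such as *Hist2h2ac* with *Hist2h2be*, are not among the 8. In 6 of the 8 pairs 1 gene rose and its partner did not pass. *Hist1h2ag* and *Hist1h2bj*, 269 bases apart, had fold changes of 0.32 and 1.51, and the ratio of *Hist1h2bj* to *Hist1h2ag* was 0.344 to 1.22 in WT and 1.47 to 1.92 in MSTN-KO. In *Hist1h2ac* and *Hist1h2bc* both fold changes were negative (-0.60 and -1.04), but only *Hist1h2bc* passed. Neither gene of the pair *Hist1h2bf* and *Hist1h2ad* passed (-0.28 and -0.03).

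The clustered genes were then grouped by the annotated bases after the hairpin, at which replication-dependent histone mRNAs are cut. The hairpin lay within 100 bases of the transcript end in 18 clustered genes tested. Of these, 9 (50%) rose and 9 did not pass, with a median log2 fold change of 0.73. Over all genes tested, 8.78% rose and 8.96% fell. In 17 further histone genes the transcript ran on beyond 100 bases, and 2 (11.8%) rose, 2 (11.8%) fell and 13 did not pass. The shares of these 17 were near those of all genes, and their median was 0.16. The 2 that rose were *Hist3h2ba* and *Hist1h2ae*, and the 2 that fell were *Hist1h1c* and *Hist1h4i*, and all 4 had an AATAAA or ATTAAA near the end. So had *Hist1h4j*, *Hist2h3c1* and *Hist3h2a* among those that did not pass. How many of all genes have such an end was not measured. In the 16 genes without a hairpin in the annotated transcript, 4 (25%) rose and 2 (12.5%) fell, with a median of 0.49. These transcripts ran from 312 bases in *Hist1h4k* to 1156 bases in *Hist1h2bc*. The search did not reach beyond the annotated end, so it does not show that these genes lack a hairpin. The limit of 100 bases was set after the values were seen, both genes that passed the filter only through MSTN-KO libraries are among the 18, and the difference between the classes was not tested. Whether the libraries were selected for poly(A) tails is not given in the sources used here, and the 7 RNAs without a poly(A) tail that were listed for a check could not be analysed here.

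**Figure D4:**
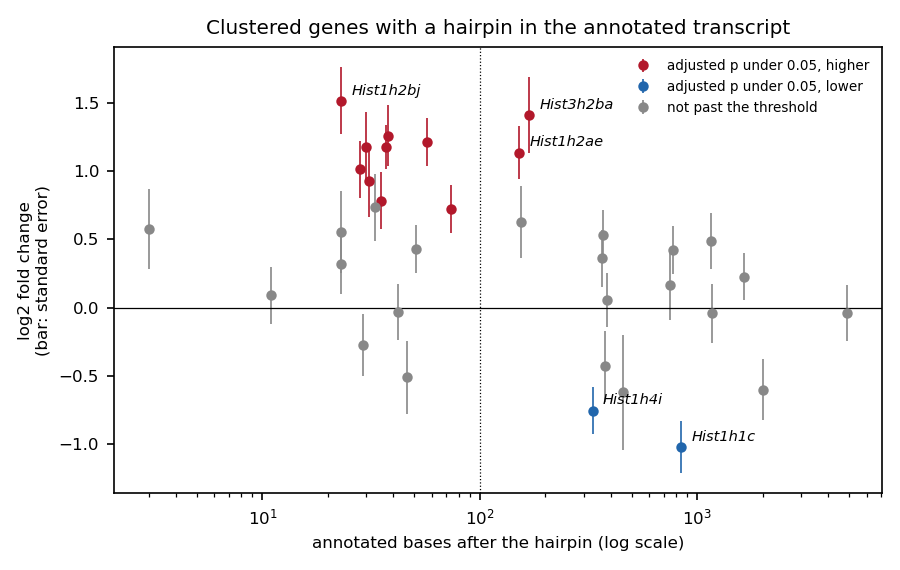
Log2 fold change (MSTN-KO over WT, vertical axis, bars are standard errors) against the annotated bases after the hairpin (log axis) for 35 clustered genes. Left of the dotted line at 100 bases, 9 of 18 genes rose, and right of it 2 of 17 rose and 2 fell. Of all genes tested, 8.78% rose and 8.96% fell.

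Clustered histone genes resemble each other closely, and FPKM of near-identical genes depends on how shared fragments were assigned, which is not given in the sources used here. In 28 of the 51 clustered genes tested, under 50% of the 50-base words of the longest transcript were unique to the gene. In these 28 genes 10 rose and 18 did not pass, with a median of 0.54, while in the other 23 genes 5 rose and 4 fell, with a median of 0.30. *Hist2h3b* and *Hist2h2aa1* had no unique word, and their values are uncertain. The others of the 10 lay between 14.4% in *Hist1h4n* and 45.0% in *Hist2h2ac*, with *Hist1h2bj* at 40.6% and *Hist1h4b* at 24.1%. *Hist1h2ag*, set against *Hist1h2bj* in a ratio, had 21.1%. The values of these genes and that ratio are uncertain for the same reason. *Hist3h2ba*, *Hist1h2ae*, *Hist1h2bp*, *Hist1h3c* and *Hist1h3a* rose with 77.9%, 56.8%, 54.7%, 53.0% and 50.5% unique words. *Hist1h1c*, *Hist1h4i*, *Hist1h2bc* and *Hist1h4a* fell with 91.5%, 71.1%, 69.4% and 59.6%, and *H1f0* rose with 94.3%. The annotated span of *Hist1h2be* overlaps *Hist1h1e* on the same strand, so fragments of these genes may be shared. With length and GC content smoothed out of every library, the fit left 10 histone genes higher and 4 lower and lowered the median of the clustered genes to 0.23.

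The promoters of clustered genes shared sequence features that the choice by symbol did not use. RefSeq promoters of GRCm38.p6, from 250 bases before to 50 bases after the start, were matched for 61 of the 68 genes. Where both genes of a head-to-head H2A and H2B pair were matched, their windows overlapped, and the same motif could count for both. The shares of the clustered promoters therefore do not all rest on separate sequences. TATAAA, the letters of a TATA box, was present on either strand in 61.5% of 52 clustered promoters, 11.1% of 9 variant promoters and 13.6% of all 32851 promoters. CCAAT, the letters of a CCAAT box, was present in 84.6%, 66.7% and 37.4%. It was present in every clustered H1, H2A, H2B and H3 promoter but only in 3 of 11 H4 promoters. ATTTGCAT, the octamer letters, was present in 17.3%, 11.1% and 1.74%, and within the clusters only in H2A and H2B promoters. These motifs do not contain one another. The promoter of *Hist2h2ac*, which held all 3, and that of *Hist1h2bj*, which held CCAAT alone, are shown with the motifs of either strand in capitals. The first is chr3:96220831-96221130 on the minus strand and the second chr13:22042948-22043247 on the plus strand.
Hist2h2ac: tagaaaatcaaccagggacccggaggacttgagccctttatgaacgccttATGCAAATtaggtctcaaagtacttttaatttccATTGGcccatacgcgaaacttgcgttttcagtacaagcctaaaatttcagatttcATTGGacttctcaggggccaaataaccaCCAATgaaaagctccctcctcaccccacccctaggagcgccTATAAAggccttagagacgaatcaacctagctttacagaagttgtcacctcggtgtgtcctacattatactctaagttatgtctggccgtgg
Hist1h2bj: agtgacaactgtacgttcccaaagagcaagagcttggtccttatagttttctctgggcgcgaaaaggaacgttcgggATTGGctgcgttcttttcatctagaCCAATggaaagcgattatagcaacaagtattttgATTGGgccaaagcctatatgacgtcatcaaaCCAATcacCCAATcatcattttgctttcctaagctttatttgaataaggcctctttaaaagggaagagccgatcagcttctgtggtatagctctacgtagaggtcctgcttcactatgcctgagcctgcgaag
A match is a description of letters and was not tested as a binding site.

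Genes that switch on the histone clusters and form the ends of their mRNAs were compared next. Of 18 such genes, 17 were tested and none passed in limma, while at an unadjusted p under 0.05 2 were higher and 1 lower, beside 16.3% and 16.2% of all genes tested. Over the alternatives 0 to 2 passed as higher and 0 to 1 as lower. Their median log2 fold change was -0.08. *Npat*, the cyclin E target that switches on the clusters, had a mean of 2.02 FPKM ± 0.256 in WT and 1.28 FPKM ± 0.481 in MSTN-KO (SD, n = 3 each; log2 fold change -0.43 ± 0.19, limma adjusted p = 0.132). *Casp8ap2*, which works with it, had -0.32 ± 0.20 and *Slbp*, the hairpin binding protein, -0.16 ± 0.17 (adjusted p = 0.294 and 0.547).

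Of 39 S-phase genes tested, 3 rose and 4 fell, beside 8.78% and 8.96% of all genes tested. The median log2 fold change of the 39 was -0.01. *Mcm7* (0.50 ± 0.13), *Mcm5* (0.47 ± 0.14) and *Lig1* (0.46 ± 0.13) rose, and *Mcm4* (-0.92 ± 0.14), *Rfc4* (-0.89 ± 0.20), *Cdc45* (-0.74 ± 0.14) and *E2f2* (-0.55 ± 0.17) fell. *Mcm4*, *Mcm5* and *Mcm7* encode subunits of the same replication helicase. The calls of S-phase genes ranged over the alternatives from 0 to 4 higher and from 2 to 10 lower.

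Of 36 histone chaperones and deposition factors, 2 rose and 1 fell, with a median of 0.11, beside the 8.78% and 8.96% of all genes. Over the alternatives the counts ranged from 0 to 4 higher and from 1 to 4 lower. *Hira*, a chaperone that places H3.3 outside replication, had a mean of 15.9 FPKM ± 0.479 in WT and 9.99 FPKM ± 0.534 in MSTN-KO (log2 fold change -0.62 ± 0.13, limma adjusted p = 0.00593). *Ruvbl2* and *Znhit1*, subunits of complexes that exchange H2A.Z, had fold changes of 0.41 ± 0.13 each (adjusted p = 0.0387 and 0.0434). The H3 and H4 chaperone *Asf1b*, the H2A.Z chaperone *Anp32e* and *Cenpa*, the H3 variant of centromeres whose symbol is outside the choice, had fold changes of -0.06 ± 0.13, 0.11 ± 0.14 and 0.14 ± 0.13 and did not pass (limma adjusted p = 0.797, 0.638 and 0.48).

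**Figure D5:**
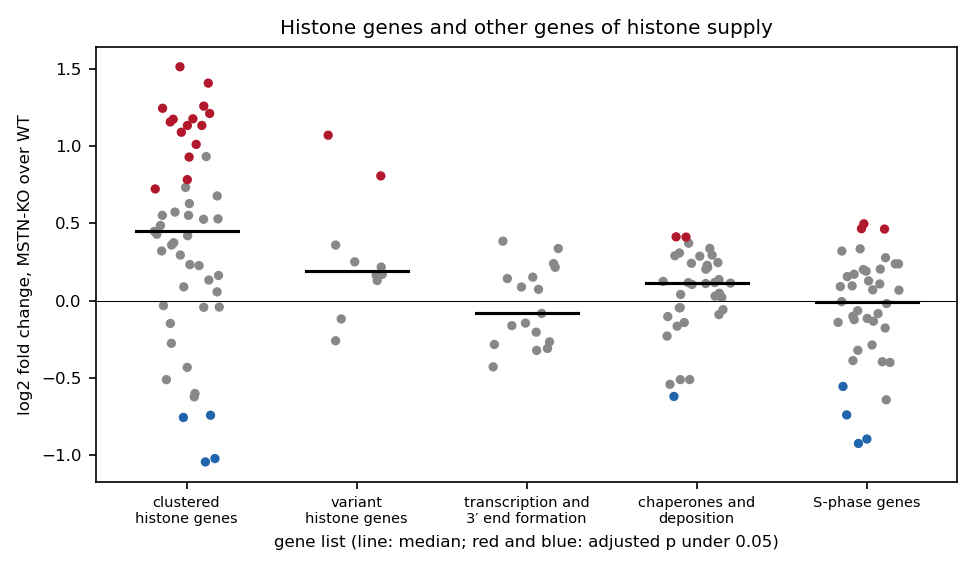
Log2 fold change (MSTN-KO over WT, vertical axis) of each tested gene in 5 lists, with red and blue for genes that passed as higher and lower and a line at the median. The medians are 0.45 for clustered and 0.19 for variant histone genes, -0.08 for transcription and 3′ end formation, 0.11 for chaperones and -0.01 for S-phase genes.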

How the data were processed

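RNA of 3 WT and 3 MSTN-KO C2C12 libraries was sequenced by Illumina HiSeq. For each library the authors deposited a file of FPKM values per gene. The submitters' processing notes name Bowtie 0.12.2 and the build mm8 without saying for which step, and the annotation, the treatment of shared fragments and the strand of counting are not given in the sources used here. The files hold no coordinates and no fragment counts, so the depth and the counting error of a value are unknown. Symbols, positions and transcripts came from GENCODE M21 (GRCm38) and promoters from RefSeq.

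Genes reaching 1 FPKM in any library were kept, and limma 3.58.1 (R 4.3.3) was run on log2(FPKM + 1) with the group as its single term, a mean-variance trend and Benjamini-Hochberg adjustment over the 10837 genes tested. Fold changes on this scale understate those of low genes. On simulated data of 10632 genes for this comparison, 198 of 200 genes changed by 2 on the log2 scale were recovered, and 8 unchanged genes were called. The changed genes were drawn from those above a set mean level, and their change exceeded that of every histone gene on this scale. Recovery of low genes or of smaller changes was not measured. Histone genes were named if variant, if past the adjusted p of 0.05, or if among the 3 highest clustered genes of a class. In other lists the 3 largest changes in each direction among genes past the threshold were named, besides 6 genes named whatever their values. *E2f2*, the marker genes and the histone genes of the filter, pair, block and hairpin accounts are named beyond this rule, after their values were seen. The members and lists were chosen with earlier results of these data known. No set test was run. Replicate numbers of the labels did not pair the libraries (correlations of deviations -0.0153, -0.128 and -0.142), and the block is an alternative. Other steps used Python 3.11.15, numpy 2.4.6, pandas 2.3.3, scipy 1.17.1, matplotlib 3.10.9 and mgcv 1.9.3.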

Additional observations from a re-analysis of the deposited data

How the results depend on the processing

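The alternatives were another pseudocount, filtering by the mean FPKM or not at all, a fit without the trend, 3 scalings, a length and GC correction, the replicate block with and without it, and leaving out each library. None of the 21 histone genes that passed turned direction, and 12 passed under every alternative. Beside 17 higher histone genes, there were 10 without a filter, 11 with scaling to a sum of 1000000 and 10 with the length and GC correction, and 7 among genes with at least 50% unique words, an alternative chosen after seeing the data. Leaving out 1 library gave 13 to 21 higher and 3 to 5 lower histone genes. Of all genes it called 423 to 1184 higher and 606 to 1251 lower, beside 952 and 971, and scaling to the sum gave 350 and 2367. The replicate block called 22 histone genes higher and 4 lower, and 939 and 1001 of all genes. The numbers did not pair the libraries. The clustered median of 0.45 moved to 0.63 with a pseudocount of 0.1 and to 0.23 with the length and GC correction, with or without the block, and to 0.38 to 0.56 without 1 library. The variant median of 0.19 moved to 0.036 with quantile normalization and -0.053 with scaling to the sum, and to 0.10 to 0.25 without 1 library. The median of all genes moved to -0.045 with the percentile 75 and -0.26 with scaling to the sum, and lay between -0.01 and 0.02 without 1 library. The causes were not tested, except that the limit on unique words leaves fewer genes.

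Scaling to the sum turned the clustered H1 median to -0.026 and the fold changes of *H2afj* to -0.037, *H2afv* to -0.12, *H2afy* to -0.15, *H2afz* to -0.034, *H3f3b* to -0.068 and *Hist3h2a* to -0.038. Quantile normalization turned *H3f3b* to -0.0025, and the length and GC correction *Hist1h2ag* to -0.0023, with or without the block. The clustered H4 median turned to -0.044 with the filter on the mean, to -0.060 with the length and GC correction, with or without the block, and to -0.094 without MSTN-KO replicate 2, within a range of -0.094 to 0.33 over the libraries left out.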
